A study of Mus musculus with 14 samples.

Results

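The genes described here are 9 genes of primitive and visceral endoderm, followed in cultures of mouse embryonic stem cells that were being turned into neural cells. They were chosen by name, with earlier results of these data known. They are the transcription factors Gata4, Gata6, Sox17 and Sox7, the endocytosis genes Dab2, Cubn and Amn, and the secreted carriers Afp and Ttr. All 9 had a row among the 15108 genes of the authors' deposited table for day 5 of differentiation (D5), and 8 had a row among the 15744 genes of the table for day 10 (D10). Amn had none at D10 and is described at D5 alone.

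All libraries came from the GLI1-FTA cell line in the A2Lox.cre background, which carries a GLI1 transgene switched on by doxycycline; GLI1 is a transcription factor at the end of the Hedgehog pathway. Induced cultures received 500 ng/ml doxycycline for 48 h, from day 3 to day 5, and controls were untreated, so the drug and the transgene changed together. At D10, 5 days after the drug was removed and at the stage labelled immature neurons, the libraries numbered 3 from GLI1-induced and 3 from control cultures. At D5, the stage labelled neural progenitor cells, they numbered 4 from GLI1-induced and 4 from control cultures. The labels do not say whether replicates were separate cultures, so p-values measure only the spread between these samples, which may be technical. The data are the authors' comparison of both groups on each day, with no value per library, so neither depth per library nor the number of samples that follow a direction is known.

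Primitive endoderm is the layer that forms beside the epiblast of the early embryo, under FGF signalling and the factors GATA6, GATA4, SOX17 and SOX7. It gives rise to visceral endoderm, which takes up and digests maternal proteins and later secretes plasma proteins, and to parietal endoderm, which lays down a thick basement membrane. Stem cell cultures can form such cells beside the intended cell type. None of the 9 genes is restricted to this lineage: GATA4 and GATA6 also act in heart, SOX7 and SOX17 in vessels, cubilin and amnionless in kidney, and Ttr is also made by choroid plexus. In bulk RNA, fewer cells of a type and less RNA per cell cannot be told apart.

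GATA6 is known to activate Dab2 in mouse visceral endoderm, and the Afp promoter is a textbook target of HNF1 factors. The 250 bases before the RefSeq gene starts of Dab2, a gene that fell at D5, and Afp, which had the largest change in level between days, are shown for that reason (GRCm38.p6, written 5′ to 3′ in the direction of the gene). Promoter windows were matched for 4 of the 9 genes (Dab2, Afp, Cubn and Amn). Capitals mark the GATA factor letters GATAA and the HNF1 half-site GTTAAT or its variant ending in C, each searched on both strands; no match of one overlapped a match of the other.
Dab2 upstream start, chr15:6299539-6299788, + strand: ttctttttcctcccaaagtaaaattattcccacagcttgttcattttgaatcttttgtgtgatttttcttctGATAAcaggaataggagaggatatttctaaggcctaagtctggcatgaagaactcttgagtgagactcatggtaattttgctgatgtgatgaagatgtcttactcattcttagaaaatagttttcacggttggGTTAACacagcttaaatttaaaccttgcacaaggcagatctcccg
Dab2 downstream start, chr15:6386498-6386747, + strand: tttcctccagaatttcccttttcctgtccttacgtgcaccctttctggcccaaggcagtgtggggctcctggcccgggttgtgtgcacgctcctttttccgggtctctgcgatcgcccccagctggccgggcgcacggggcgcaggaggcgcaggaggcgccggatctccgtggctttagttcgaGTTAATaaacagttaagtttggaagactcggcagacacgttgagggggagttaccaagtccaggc
Afp, chr5:90490464-90490713, + strand: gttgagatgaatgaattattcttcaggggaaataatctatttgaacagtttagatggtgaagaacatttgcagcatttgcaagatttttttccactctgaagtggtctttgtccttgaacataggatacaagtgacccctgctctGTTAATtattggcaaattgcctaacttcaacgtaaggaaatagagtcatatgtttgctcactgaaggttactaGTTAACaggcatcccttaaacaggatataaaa
The upstream Dab2 window held 1 GATA match, which begins 178 bases before the start, while 22.6% of 32851 mouse promoter windows of the same length held one. Afp held 2 HNF1 half-sites, which begin 105 and 32 bases before the start, and each Dab2 window held 1, against 8.75% of all windows with at least 1. The windows of Cubn and Amn held neither motif. The GLI letters GACCACCCA were in none of the 5 windows of these genes and in 0.225% of all windows. GC content was 36.0% in the Afp window, 36.8% in the upstream Dab2 window and 60.0% in the downstream one. The shares over all windows are not matched for base content. These matches describe letters only, as no binding was measured here.

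The first comparison asks how the endoderm genes stood at the end of GLI1 induction. Gli1 itself was higher in induced cells at D5, with a log2 fold change of 4.79 in the authors' deposited table (adjusted p = 1.12e-81), a value in which transgene and endogenous transcripts are not told apart. Of the 9 endoderm genes, 4 fell in the authors' deposited table at an adjusted p under 0.05, namely Gata4, Gata6, Dab2 and Sox7, and 0 rose. Over all genes at D5, 4.44% passed in either direction and 2.10% passed as lower. At an unadjusted p under 0.05 all 9 passed in the authors' deposited table, 7 lower and 2 higher. Over all genes 10.7% passed in either direction and 5.83% as lower. A log2 fold change below 0 was found in 49.5% of all genes at D5. The median log2 fold change was -0.63 over the 9 genes and 0.0015 over all genes. The 9 genes were measured in the same libraries and may come from the same cells, so they are not 9 independent results. As they were chosen with earlier results of these data known, their counts beside all genes are not those of an unselected set.

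Of the 4 lineage factors, 3 fell in the authors' deposited table (Gata4, Gata6 and Sox7) and Sox17 did not pass. Gata4, a zinc-finger factor of primitive endoderm and heart, had a log2 fold change of -0.78 in the authors' deposited table (adjusted p = 0.00569). The standard error (SE) implied by that p, derived here, was 0.21. The group means implied by the fold change and the average level were 56.3 CPM (read counts scaled to a common library total) in induced cells and 96.7 CPM in controls. Gata6, which starts the primitive endoderm programme, stood at -0.67 in the authors' deposited table (adjusted p = 0.0167, implied SE 0.20), from 20.7 CPM in induced cells and 33.0 CPM in controls. Sox7, a SOX family factor of parietal endoderm and vessels, stood at -0.63 in the authors' deposited table (adjusted p = 0.0338, implied SE 0.20), from 10.9 CPM in induced cells and 16.8 CPM in controls. Sox17, its close relative that acts in endoderm and arteries, had a log2 fold change of -0.65 in the authors' deposited table, between those of Gata6 and Sox7, (adjusted p = 0.0597, implied SE 0.22). Its implied means were 15.9 CPM in induced cells and 25.01 CPM in controls.

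The endocytosis genes were also below 0, and 1 of the 3 passed. Dab2, a clathrin adaptor that links receptors to coated pits, had a log2 fold change of -0.57 in the authors' deposited table (adjusted p = 0.0287, implied SE 0.18). Its implied means were 217 CPM in induced cells and 323 CPM in controls. Cubn encodes cubilin, the receptor that takes up vitamin B12 with intrinsic factor and many plasma proteins, and stood at -0.41 in the authors' deposited table (adjusted p = 0.427, implied SE 0.20). Its implied means were 283 CPM in induced cells and 376 CPM in controls. Amn, the small membrane partner that carries cubilin to the surface, was the lowest of the 9 in level, at 1.32 CPM in induced cells and 2.10 CPM in controls as implied means. Its log2 fold change of -0.67 in the authors' deposited table had the adjusted p 0.460 and an implied SE of 0.34. An annotated gene on the opposite strand, Gm13270, shares exonic bases with Cubn, so its value is uncertain: the labels call the reads stranded but name the TruSeq RNA v2 kit, which does not mark strand, so reads of the pair may not be separable.

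The secreted carriers stood on the other side of 0. Afp, alpha-fetoprotein of visceral endoderm and fetal liver, had a log2 fold change of 0.86 in the authors' deposited table (adjusted p = 0.258), with implied means of 8.93 CPM in induced cells and 4.91 CPM in controls. Ttr, transthyretin, which carries thyroid hormone and retinol-binding protein, stood at 0.54 in the authors' deposited table (adjusted p = 0.0950), with implied means of 22.5 CPM in induced cells and 15.4 CPM in controls. Neither passed over all genes. Their 95% intervals, derived here from the implied SEs, ran from 0.14 to 1.59 for Afp and from 0.16 to 0.92 for Ttr, while those of the 4 lineage factors ran from -1.18 at the lowest to -0.23 at the highest bound.

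**Figure D1:**
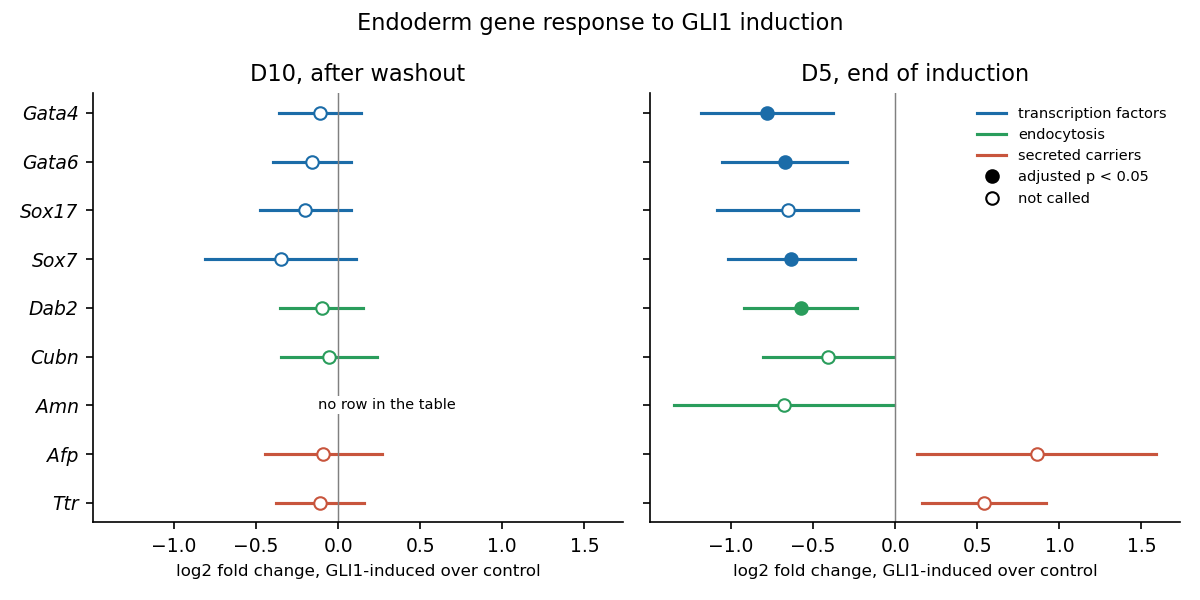
Log2 fold change of each endoderm gene, GLI1-induced over control, at D10 (left) and D5 (right); lines are 95% intervals from the implied SEs and filled points passed an adjusted p of 0.05. At D5, 4 genes between -0.78 and -0.57 passed and Afp and Ttr stood above 0; at D10 all 8 were between -0.35 and -0.06 and none passed.

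**Figure D2:**
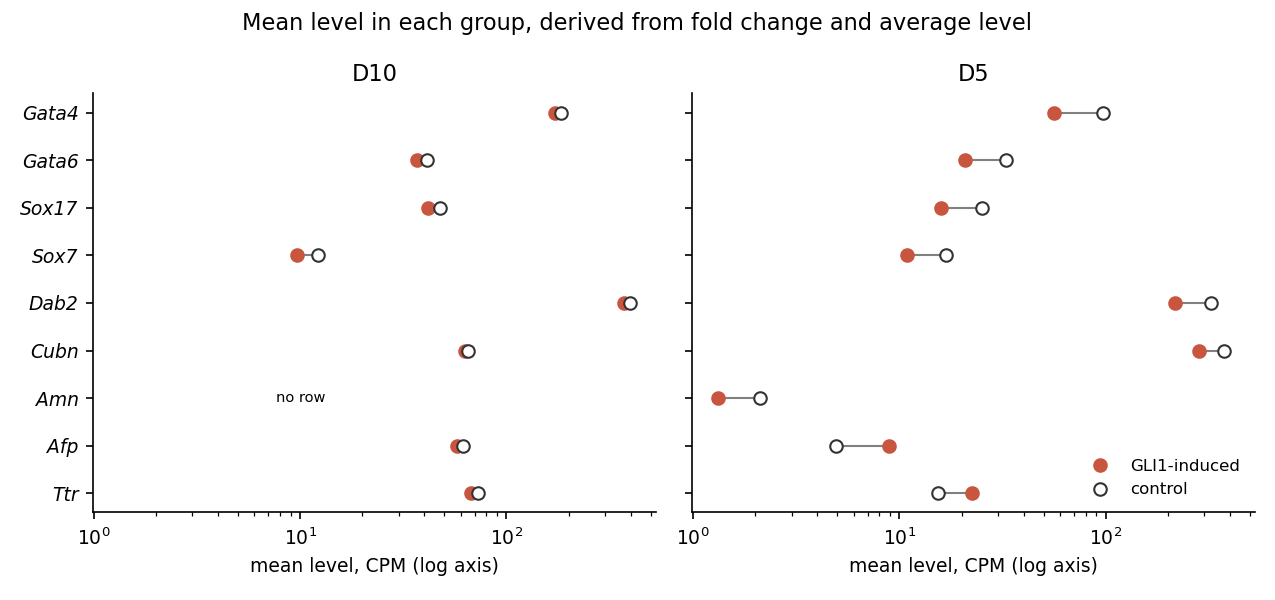
Mean level of each gene in CPM on a log axis, derived here from the authors' fold change and average, in GLI1-induced cells (filled) and controls (open), at D10 (left) and D5 (right); no error per group can be given. At D5 induced cells lay below controls for 7 genes and above them for Afp and Ttr.

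The rest of the endoderm programme was read from 7 lists with 98 distinct genes, none of them among the 9. These lists were also chosen with earlier results of these data known. Of the 82 genes measured at D5, 12 fell and 4 rose in the authors' deposited table. Over all genes 4.44% passed in either direction and 2.10% as lower. A log2 fold change below 0 was found in 66 of the 82, beside 49.5% of all genes. The median of the 82 was -0.29. Among parietal endoderm and basement membrane genes, 11 of 12 measured were below 0, with a median of -0.60, near that of the 9 genes. Of these, 3 fell in the authors' deposited table, namely the growth factor receptor gene Pdgfra at -0.81, the matrix protein gene Sparc at -0.66 and the nidogen gene Nid1 at -0.64. The collagen IV genes Col4a1 and Col4a2 stood at -0.60 each in the authors' deposited table without passing (adjusted p = 0.0664 and 0.0714).

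Among other endoderm transcription factors, the Foxa pair rose. Of 9 measured at D5, 1 fell and 2 rose in the authors' deposited table (list median -0.53). The shares of all genes were 2.10% as lower and 4.44% in either direction. A log2 fold change below 0 was found in 6 of the 9, beside 49.5% of all genes. Foxa2 at 1.37 and Foxa1 at 1.41 in the authors' deposited table (adjusted p = 2.12e-12 and 6.02e-09) are forkhead factors of endoderm that the floor plate of the neural tube also expresses. Hnf4a, a nuclear receptor of visceral endoderm and liver, stood at -0.53 in the authors' deposited table without passing (adjusted p = 0.415).

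Secreted and lipid transport genes of visceral endoderm were mixed. Of 17 measured at D5, 3 fell and 1 rose in the authors' deposited table (list median -0.32). The shares of all genes were 2.10% as lower and 4.44% in either direction. The trypsin inhibitor gene Spink1 at -0.59, the transcriptional cofactor gene Cited1 at -0.66 and the apolipoprotein gene Apoe at -0.42 fell in the authors' deposited table. Apob, the structural protein of large lipoproteins, rose by 0.60 in the authors' deposited table (adjusted p = 0.00678). In all, 11 of the 17 had a log2 fold change below 0, beside 49.5% of all genes.

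Calls among the endocytosis partners listed for cubilin and megalin went both ways in the same comparison. Of 22 measured at D5, 3 fell and 1 rose in the authors' deposited table (list median -0.07). The shares of all genes were 2.10% as lower and 4.44% in either direction. A log2 fold change below 0 was found in 19 of the 22, beside 49.5% of all genes. Lrp2 encodes megalin, the large receptor that works with cubilin, and stood at -0.53 in the authors' deposited table (adjusted p = 0.0340). Its chaperone Lrpap1 at -0.48 also fell in the authors' deposited table, and the lipoprotein receptor Vldlr rose by 0.86. The adaptor complex and clathrin genes of this list, which all cells use, lay between -0.20 and -0.02 in the authors' deposited table with none passing.

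Of 10 definitive endoderm and gut genes measured at D5, 2 fell (Nepn at -1.14 and Epcam at -0.58) and Foxa2 rose in the authors' deposited table. The shares of all genes were 2.10% as lower and 4.44% in either direction. A log2 fold change below 0 was found in 9 of the 10, beside 49.5% of all genes. FGF and pluripotency inputs to primitive endoderm had 0 of 13 genes called up or down in the authors' deposited table, with 2 at an unadjusted p under 0.05 (Pou5f1 at -0.75 and Fgf4 at -1.61). The other GATA genes and cofactors had 0 of 3 passing in the authors' deposited table, and 0 at an unadjusted p under 0.05.

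**Figure D3:**
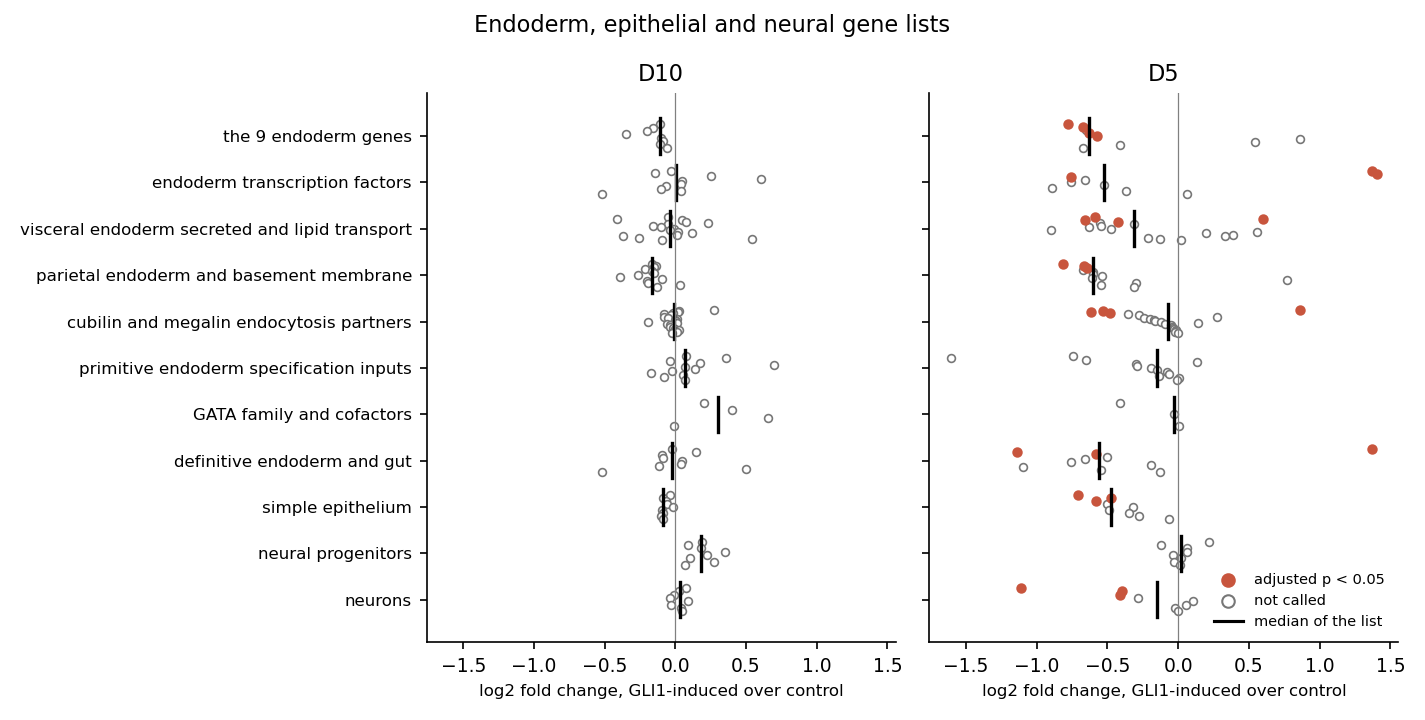
Log2 fold change, GLI1-induced over control, of each measured gene by list at D10 (left) and D5 (right); filled points passed an adjusted p of 0.05 and black bars are list medians. At D5 the medians of the 9 endoderm genes (-0.63) and of the parietal endoderm list (-0.60) lay close together, and neural progenitor genes stood near 0 (0.017).

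Markers of other cell types were in part also lower at D5. Their calls stand beside 2.10% of all genes called as lower and 4.44% in either direction. All 9 simple epithelium genes were below 0, beside 49.5% of all genes, with a median of -0.48. Their summed implied level was 330.0 CPM in induced cells and 435 CPM in controls. Of them Esrp1 at -0.71, Cdh1 at -0.48 and Epcam fell in the authors' deposited table. Of 8 neuron genes 3 fell in the authors' deposited table (Nefl at -1.11, Tubb3 at -0.41 and Stmn2 at -0.39), and their summed level was 726 CPM in induced cells and 890 CPM in controls. Of 10 pluripotency genes, 9 were below 0, and Dppa5a at -0.73 and Tdh at -0.83 fell in the authors' deposited table; they summed to 43.7 CPM in induced cells and 60.9 CPM in controls. All 8 neural progenitor genes were measured and 0 passed in the authors' deposited table, also at an unadjusted p under 0.05, with sums of 1396 CPM in induced cells and 1372 CPM in controls. The part of these markers in the endoderm result was not tested.

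The other lineages that share the 9 genes were sparsely measured at D5. Their calls stand beside 4.44% of all genes called in either direction. Of the endothelial list 6 of 15 genes had a row, summing to 47.9 CPM in induced cells and 41.3 CPM in controls. The calls in the authors' deposited table were Sox18 at 7.43 and Flt1 at -0.92. The higher sum in induced cells came from Sox18, with implied means of 22.6 CPM in induced cells and 0.131 CPM in controls. Without Sox18 the sum was lower in induced cells, mostly through Flt1. Tek and Kdr also had lower implied means in induced cells, and Cdh5 and Eng had higher ones. The endothelial markers Cdh5, Kdr, Tek and Eng had rows, with averages between 1.56 and 4.92 CPM, while Pecam1, Tie1, Emcn, Cldn5, Erg and Fli1 had none. Of the cardiac list 7 of 16 had a row, summing to 28.4 CPM in induced cells and 26.6 CPM in controls, with 0 called in the authors' deposited table, 1 at an unadjusted p under 0.05 (Isl1 at 0.73) and no row for Nkx2-5, Tbx5, Hand1 or Hand2. Of the choroid plexus list 5 of 8 had a row, with sums of 19.0 CPM in induced cells and 32.5 CPM in controls, Clic6 called at -0.85 in the authors' deposited table and no row for Kcne2 or Kl. The kidney tubule list had rows for Lrp2 and Slc5a2, 2 of 7, with sums of 235 CPM in induced cells and 336 CPM in controls, nearly all of it Lrp2. The macrophage list had 1 of 6 (Cd68 at 0.37) with 1.88 CPM in induced cells and 1.45 CPM in controls, and the trophoblast list 5 of 7, with 12.4 CPM in induced cells and 14.6 CPM in controls and 0 called in the authors' deposited table. At an unadjusted p under 0.05 there were 0 macrophage genes and 1 trophoblast gene in the authors' deposited table, Plac1 at -0.61.

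**Figure D4:**
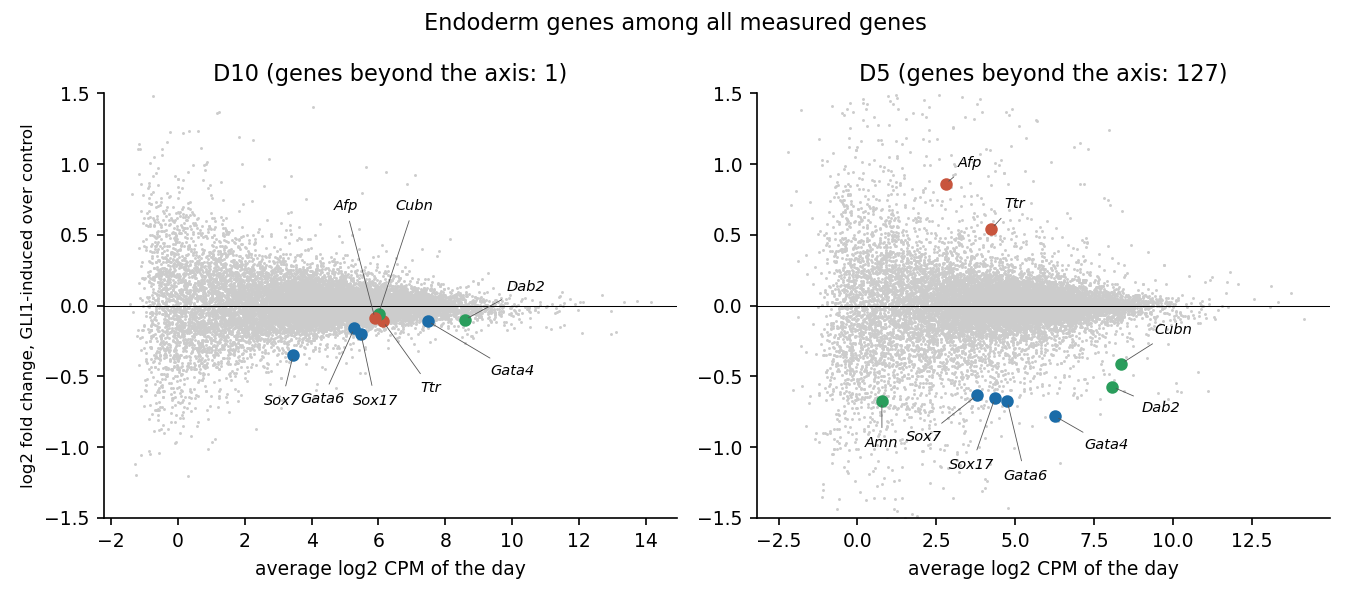
Log2 fold change, GLI1-induced over control, against average log2 CPM for all genes (grey) and the endoderm genes (coloured by role) at D10 (left) and D5 (right); the vertical axis leaves out the 1 gene at D10 and 127 genes at D5 beyond 1.5. The endoderm genes span -0.35 to -0.06 at D10, and -0.78 to 0.86 at D5.

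The second comparison asks what was left of this difference 5 days after the drug was removed. At D10 Gli1 stood at 0.57 in the authors' deposited table, short of the threshold (adjusted p = 0.780, unadjusted p = 0.00161). Of the 8 endoderm genes measured, 0 passed in the authors' deposited table, beside 0.0826% of all genes, and 0 had an unadjusted p under 0.05, beside 1.53% of all genes. All 8 had a log2 fold change below 0, beside 48.9% of all genes, with a median of -0.11.

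Sox7 was furthest from 0 at D10, with a log2 fold change of -0.35 in the authors' deposited table (adjusted p = 1.00) and implied means of 9.60 CPM in induced cells and 12.2 CPM in controls. Sox17 followed at -0.20 and Gata6 at -0.16 in the authors' deposited table. Gata4 stood at -0.11 in the authors' deposited table, with implied means of 171 CPM in induced cells and 185 CPM in controls and a 95% interval derived here from -0.36 to 0.14. Dab2 at -0.10 and Cubn at -0.06 in the authors' deposited table had implied means of 371 and 62.9 CPM in induced cells and of 397 and 65.4 CPM in controls. Ttr at -0.11 and Afp at -0.09 in the authors' deposited table had implied means of 67.6 and 57.7 CPM in induced cells and of 73.1 and 61.4 CPM in controls. Group means thus differed by at most 1.27-fold at D10, for Sox7.

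Other endoderm and pathway genes gave 0 calls among 84 measured at D10 in the authors' deposited table, with 2 at an unadjusted p under 0.05 (Gata2 at 0.65 and Gata3 at 0.40) and a median of -0.02. Parietal endoderm genes had 12 of 13 below 0, beside 48.9% of all genes. Their median was -0.16, with 0 called in the authors' deposited table or at an unadjusted p under 0.05. All 9 simple epithelium genes were also below 0, with a median of -0.08. Of them 0 were called in the authors' deposited table and 0 had an unadjusted p under 0.05. Their summed levels were 1779 CPM in induced cells and 1853 CPM in controls. As the lists were chosen with earlier results of these data known, such counts are not those of unselected genes. The 8 neuron genes summed to 2085 CPM in induced cells and 2041 CPM in controls. Transcripts of neuron genes were thus present beside those of the endoderm and epithelium lists. In every other list 0 genes of the authors' deposited table passed at D10, and at an unadjusted p under 0.05 there were Tal1 at 0.47, Dppa5a at 0.67, Nes at 0.35 and Gata3.

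Markers of the other lineages that express some of the 9 genes were in part also present at D10. The endothelial list had 7 of 15 genes measured, summing to 224 CPM in induced cells and 228 CPM in controls. Most of it was Flt1 and Tek, with averages of 133 and 71.5 CPM. Tal1 averaged 15.4 CPM, and Cdh5, Kdr, Esam and Eng between 0.588 and 3.27 CPM. The cardiac list had 10 of 16, summing to 156 CPM in induced cells and 145 CPM in controls, with Myh7 at 75.0, Myh6 at 31.6 and Tbx20 at 13.1 CPM on average. Sox18, Pecam1, Tie1, Emcn, Cldn5, Erg and Fli1 of the first list and Nkx2-5, Tbx5, Hand1 and Hand2 of the second had no row. The choroid plexus list summed to 103 CPM in both induced cells and controls. Clic6 was its highest gene, at an average log2 CPM of 6.18, and Kcne2 and Kl had no row. The kidney tubule list summed to 137 CPM in induced cells and 139 CPM in controls, most of it Lrp2, with an average of 118.9 CPM. Slc34a1, Slc22a6, Slc22a8 and Kap had no row. Which cells made the 9 transcripts was not tested.

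The third question is whether the D10 response of these genes departs from that at D5. For each of the 14792 genes shared by the tables, the log2 fold change at D5 was subtracted here from that at D10 and divided by the combined implied SE, and p-values were adjusted over all of them by Benjamini-Hochberg. Of the 8 genes 0 passed, beside 1.24% of all genes, and 5 had an unadjusted p under 0.05, beside 4.91% of all genes. All 8 were closer to 0 at D10, beside 61.0% of all genes. These genes were chosen with earlier results of these data known, and each had an unadjusted p under 0.05 at D5 in the authors' deposited table. The shares over all genes are thus not those of a like set. By this test on the authors' values, Gata4 differed by 0.67 (95% interval 0.20 to 1.14, adjusted p = 0.274), Gata6 by 0.51 (0.07 to 0.96, adjusted p = 0.686) and Dab2 by 0.47 (0.05 to 0.90, adjusted p = 0.755). From the authors' values, Ttr differed by -0.65 (-1.12 to -0.19, adjusted p = 0.282) and Afp by -0.95 (-1.76 to -0.14, adjusted p = 0.620). Sox17 at 0.46, Cubn at 0.35 and Sox7 at 0.28 had intervals that include 0. Thus 0 of the 8 endoderm genes passed for the difference between days, although 4 of the 9 were called at D5 and 0 of the 8 at D10. With z rescaled within bins of genes of like level, 3 of the 8 passed from the authors' values (Gata4, Dab2 and Ttr).

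The levels themselves also differed between the days. The averages below are over both groups of a day, carry no spread over libraries and were not tested. Afp had the largest change, with an average log2 CPM of 5.90 at D10 and 2.79 at D5 in the authors' deposited table, 8.61-fold higher at D10. Ttr had 6.14 at D10 and 4.24 at D5 in the authors' deposited table, 3.71-fold higher. Cubn went the other way, with 6.003 at D10 and 8.36 at D5 in the authors' deposited table, 5.14-fold lower at D10. Lrp2, its megalin partner, also had the lower average at D10, 6.89 against 8.13 at D5 in the authors' deposited table. Gata4 was 2.33-fold and Sox17 2.18-fold higher at D10, Gata6 1.45-fold and Dab2 1.42-fold higher, and Sox7 1.27-fold lower. So 6 of 8 genes had the higher average at D10, beside 50.4% of all genes. The median change over all genes was 0.0053 on the log2 scale, and the changes of Afp and Cubn stood at the 99.3 and 0.331 percentiles of all genes.

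**Figure D5:**
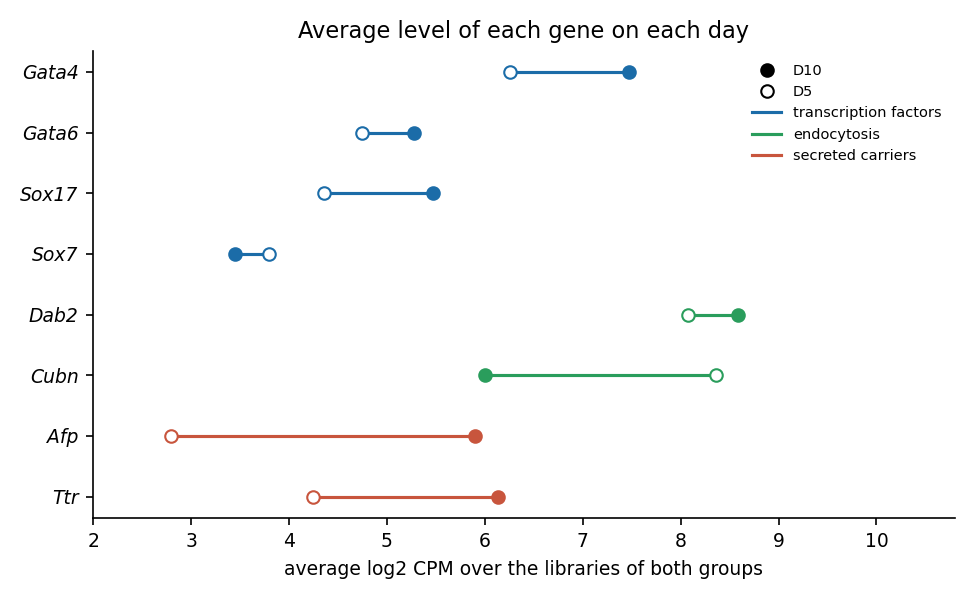
Average log2 CPM of each gene over both groups at D10 (filled) and D5 (open); colours give the role, and no spread over libraries is known. Afp (5.90 at D10 and 2.79 at D5) and Cubn (6.003 at D10 and 8.36 at D5) had the largest changes of the 8, in opposite directions.

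Per kilobase of exon, the order of the genes changed between days as well. Average levels in CPM per kb at D10 were 73.6 for Dab2, 59.3 for Ttr, 48.9 for Gata4, 28.9 for Afp, 12.0 for Gata6, 10.9 for Sox17, 5.69 for Cubn and 3.31 for Sox7. At D5 they were 51.8 for Dab2, 29.2 for Cubn, 21.0 for Gata4, 15.98 for Ttr, 8.29 for Gata6, 4.99 for Sox17, 4.20 for Sox7, 3.35 for Afp and 1.01 for Amn. Dab2 thus led on both days, at the 95.7 percentile of genes at D10 and the 92.6 percentile at D5, and Ttr and Afp stood above Cubn at D10 but below it at D5. Whether neighbours in this order differ beyond their spread cannot be said without values per library. For scale, the keratin gene Krt18 had 366 CPM per kb at D10 and 68.7 at D5, and the neuron gene Tubb3 168 at D10 and 113 at D5.

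The genes whose pattern lay nearest to the median of the 8 endoderm genes were sought among the 667 other genes called at D5. Likeness was the Euclidean distance over 3 values, the log2 fold changes at D5 and D10 and the change in average log2 CPM between days. Nearest were Pcgf5 at a distance of 0.081, Flrt3 at 0.090, Cited1 at 0.104, Srgn at 0.113 and Fabp3 at 0.118. Their log2 fold changes lay between -0.71 and -0.50 at D5 in the authors' deposited table, as the rule favours. With 3 values from 2 comparisons this likeness is a description only.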

How the data were processed

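Polyadenylated RNA was read as single-end reads of 50 bases, per the labels' protocols. How reads were aligned and counted, the build and the test are not stated in these sources. Per the file headers, the authors deposited, by day and Entrez identifier, log fold changes with average log2 CPM, p-value and FDR. The log2 base of the fold change was assumed from the column beside it. The FDR in the authors' deposited tables equals a Benjamini-Hochberg adjustment of their p-values within 3.41e-05. No value per library was used, so no sample was refitted or left out.

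Symbols came from RefSeq (GRCm38.p6), which with the authors' symbols named 94.6% of genes on each day; all 9 genes matched. Implied SEs are the size of the log2 fold change over that of z, from the two-sided p. Implied group means assume that the average weights both groups equally; they sum to 1000534 CPM (induced) and 1002551 CPM (control) at D5. Exon lengths are unions over GENCODE M21 transcripts. The difference between days uses a normal reference, and the days share no libraries. On simulated data for the comparison of days, over 14792 genes, it called 75 of 100 genes given a log2 change of 1. It called 97 of 100 given one of 2, and 10 of 14592 given none. Changes under 1, the size of all 8 endoderm differences, were not simulated. The simulated noise was drawn from the implied SEs, so it cannot show whether those SEs suit the data. In the data 1.53% of all genes at D10 had an unadjusted p under 0.05, fewer than such noise gives, so the comparison of days may miss differences. Python 3.11.15, numpy 2.4.6, pandas 2.3.3 and scipy 1.17.1 were used.

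The genes and lists were chosen with earlier results of these data known. Named are all 9 genes, Gli1, up to 4 called genes per list, members of small counts and the nearest patterns. Also named are markers of other cell types with their levels and, after their values were seen, Hnf4a, Col4a1, Col4a2 and Krt18. Some called genes counted in the lists are not reported here by name. Alternatives were other thresholds, a 2-fold minimum, Holm's adjustment, genes of at least 1 in average log2 CPM, and z rescaled within bins of about 500 genes of like level so that its median size is that of a standard normal.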

Additional observations from a re-analysis of the deposited data

How the results depend on the processing

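Of the endoderm genes at D5, 4 were called with the deposited p-values, 1 (Gata4) at an adjusted p under 0.01, 6 at 0.1, 0 with a 2-fold minimum, 0 with Holm's adjustment and 7 with z rescaled from the authors' p-values, which added Sox17 (adjusted p = 0.0253), Ttr (0.0259, higher) and Cubn (0.00438). Of the other endoderm and pathway genes, 16 were called at D5, 9 at 0.01, 3 with a 2-fold minimum, 4 with Holm's adjustment and 25 with rescaled z. At D10, z rescaled from the authors' p-values called 1 such gene (Gata2, adjusted p = 0.00319), where 0 were called otherwise, and 0 of the 8 endoderm genes. For the difference between days, 0 endoderm genes passed and 3 passed with z rescaled from the authors' p-values, namely Gata4 (adjusted p = 0.00357), Dab2 (0.00334) and Ttr (0.0174). An average log2 CPM of at least 1 gave counts of 4 and 16 at D5, as without it. Subtracting the median change of all genes left the median level change of the 8 genes at 0.82. The 2-fold minimum leaves no endoderm gene by construction, since none of the 9 changed by that much; the cause of the other changes was not tested. No paired analysis was possible because the deposited tables hold no columns per sample, and leaving out replicates could not be run for the same reason. The depth per sample is unknown.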
